A study of Rattus norvegicus with 8 samples.

Results

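The NF-kB group described here holds 10 genes, which are the kinases Ikbke, Tbk1, Ikbkb and Chuk, the kinase scaffold Ikbkg, the inhibitor Nfkbia and the transcription factor subunits Nfkb1, Nfkb2, Rela and Relb. Its members were taken by gene name among the probes of a rat expression array that are not control spots, without a filter on their signal. The genes were chosen with earlier results of these data known. Of the 10 genes, 9 had a probe under these names, with 10 probes among the 30367 of the array. Testing required a signal well above background on 4 or more of the 8 arrays, which held for 8 of the genes and 9 of their probes, out of 23677 probes and 13393 gene symbols in the series. Relb was not analysed here.

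The lumbar L6S1 spinal cord was taken from 4 male Wistar rats after repeated water avoidance (WA) stress and from 4 male control rats of the same strain, all 12 weeks old, with 1 array per rat. In WA stress a rat stays on a small platform surrounded by water for 1 h, and this was repeated on 10 days, with the tissue taken 24 h after the last session. The labels give the other rats as controls. Segments were dissected whole after removal of the meninges, so neurons, glia and vessel cells contribute together, and fewer cells of a type cannot be told apart from less RNA per cell.

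NF-kB is a family of transcription factors built as dimers of REL proteins. In resting cells the inhibitor IkB alpha, encoded by Nfkbia, keeps the dimer of p65 (Rela) and p50 (Nfkb1) in the cytoplasm. Cytokine and Toll-like receptors activate the canonical IKK complex of IKK beta (Ikbkb), IKK alpha (Chuk) and the scaffold NEMO (Ikbkg), which phosphorylates the inhibitor and so marks it for degradation. The related noncanonical kinases IKK epsilon (Ikbke) and TBK1 (Tbk1) phosphorylate interferon regulatory factors and also take part in NF-kB signaling. NF-kB target genes include cytokines, chemokines and adhesion molecules, and in the spinal cord the pathway is known for its role in glial inflammatory responses.

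All values below are log2 signals of a probe after subtraction of the 75th percentile of its array, so a value below 0 lies under that percentile, and differences are stressed minus control. Probes differ in their hybridization, so the level of a probe is not set against that of another probe. Rela is the member with a pair of probes, one near each end of its transcript, and they are printed here because their values spread over different ranges across the arrays. The 5′ probe begins at base 180 of the transcript and lies at chr1:208263526-208263582 of the rn4 assembly on the plus strand. The 3′ probe begins at base 1654, lies at chr1:208272360-208272419 on the same strand and ends with a stop codon, shown in capitals. The probe of Tbk1 begins at base 1899 of its transcript, at chr7:60867774-60867833 on the minus strand, and is printed because its difference varied most between fits among the kinases.
Rela 5′ probe: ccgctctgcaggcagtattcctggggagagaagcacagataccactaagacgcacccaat
Rela 3′ probe: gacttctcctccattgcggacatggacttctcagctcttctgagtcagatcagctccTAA
Tbk1 probe: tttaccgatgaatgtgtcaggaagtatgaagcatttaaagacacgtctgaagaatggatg

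One array stood apart from its group. The 5′ minus 3′ difference compares probes near both ends of the same transcripts, as a median over 1885 transcripts centred over the arrays, and falls when the 5′ parts of transcripts give less signal. It was 0.22 in control replicate 2, between -0.30 and -0.18 in the other control rats and between 0.09 and 0.17 in the stressed rats (exact permutation test, two-sided, p = 0.143). Stressed rats filled row 1 of the slide and control rats row 2, so the row cannot be told apart from stress. The unscaled 75th percentiles ranged from 1751 to 1945 in stressed and from 1841 to 2335 in control rats. The exact permutation test, two-sided, gave p = 0.114 for them, and control replicate 2 was the lowest control. Across all probes limma called 885 at a false discovery rate (FDR) below 0.1, of which 655 were higher in stressed rats, or 74.0% against 61.3% of the calls after quantile normalization. Results of the NF-kB genes that turn on control replicate 2 or on this measure are given with their values below.

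No NF-kB kinase, inhibitor or subunit was called different between stressed and control rats. None of the 9 tested probes passed an FDR of 0.1 in limma, where 3.74% of all tested probes did, and their adjusted p values ran from 0.182 to 0.763. At an unadjusted p below 0.05 there were 2 probes, Ikbke and Ikbkb, beside 20.3% of all tested probes. The difference was below 0 for 3 of the 9 probes, Ikbke, Ikbkb and Nfkbia, and above 0 for 6, while 40.4% of all tested probes were lower in stressed rats. Settings named below call other shares of all tested probes, namely 4.92% after quantile normalization, 50.6% with array weights, 42.4% without control replicate 2 and 10.1% with the 5′ minus 3′ covariate, and a member that passes in them is to be read beside these shares. The median difference over the 8 tested genes, with 1 probe per gene, was 0.08 on the log2 scale. It was 0.06 over all tested probes and 0.02 over 1 probe per gene symbol.

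**Figure D1:**
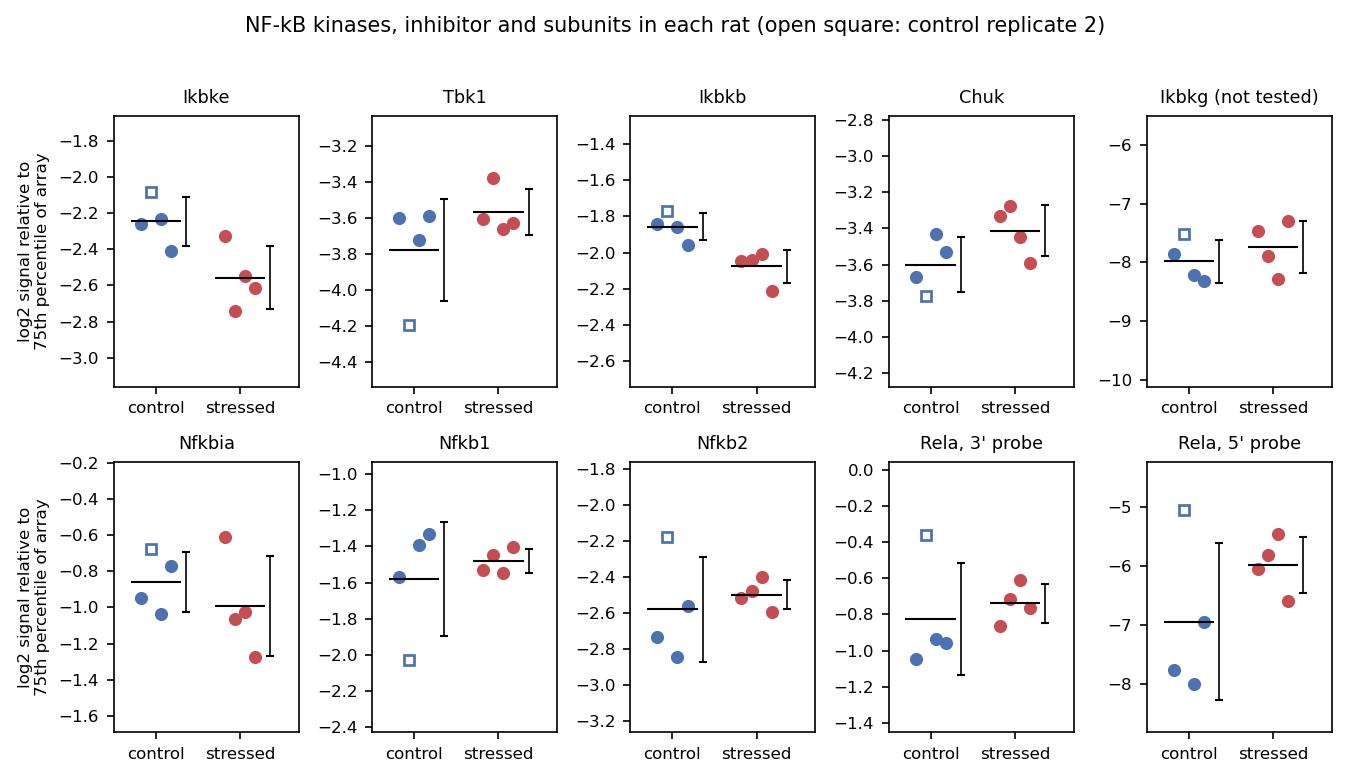
Log2 signal minus the array's 75th percentile (vertical axis) for each probe in each control and stressed rat, with the group mean as a line and the SD (n = 4) as a bar. The axes span the same range except for Ikbkg and the Rela 5′ probe. The Ikbkb groups do not overlap, and control replicate 2 (open square) lies lowest for Tbk1, Chuk and Nfkb1 and highest for Ikbke, Ikbkb, Nfkb2 and both Rela probes.

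The noncanonical kinase Ikbke, at chr13:44197682-44197741 on the minus strand, had a lower mean signal in stressed rats. Its log2 signal was -2.26, -2.08, -2.23 and -2.41 in the control rats and -2.32, -2.74, -2.55 and -2.62 in the stressed rats. Stressed replicate 1 lay within the control range and the other 3 stressed rats lay below all controls. The group means were -2.24 ± 0.13 (SD, n = 4) in control and -2.56 ± 0.17 (SD, n = 4) in stressed rats. Their difference of -0.31 (SE 0.11, 95% interval -0.57 to -0.05) had an adjusted p of 0.190 in limma. The exact permutation test on this probe alone gave p = 0.0571, where 4 against 4 rats allow no p below 0.0286. The difference kept its sign in all 19 fits, between -0.42 and -0.25, and passed an FDR of 0.1 after quantile normalization (-0.41, adjusted p = 0.0822, limma) and with array weights (-0.30, adjusted p = 0.0445, limma), where 4.92% and 50.6% of all tested probes passed. Control replicate 2 was the highest of the 8 rats, and the difference was -0.26 without it.

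Tbk1, the kinase most closely related to IKK epsilon, had a difference in the other direction. The control rats gave -3.60, -4.19, -3.72 and -3.59 and the stressed rats gave -3.60, -3.38, -3.66 and -3.63. Both groups lay close together except for control replicate 2, the lowest of the 8 values. The difference was 0.21 (SE 0.15, 95% interval -0.13 to 0.55, adjusted p = 0.438 in limma). Without control replicate 2 it was 0.07, and after quantile normalization it was also 0.07. In a fit with the 5′ minus 3′ difference as covariate it was 0.50 (adjusted p = 0.0774, limma). Control replicate 2 was the one control array whose 5′ minus 3′ difference lay on the side of the stressed arrays, and the covariate was not fitted without it.

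Ikbkb encodes the main catalytic kinase of the canonical complex, and its groups did not overlap. Its probe lies at chr16:73858022-73858081. The signal was -1.84, -1.77, -1.86 and -1.96 in the control rats and -2.04, -2.04, -2.01 and -2.21 in the stressed rats. All 4 stressed rats were below all 4 controls, which also held for 5.44% of all tested probes, and groups separated in either direction for 12.1%. The means were -1.86 ± 0.08 (SD, n = 4) in control and -2.08 ± 0.09 (SD, n = 4) in stressed rats, with a difference of -0.22 (SE 0.08, 95% interval -0.40 to -0.04, adjusted p = 0.182 in limma). The exact permutation test gave p = 0.0286, the smallest that the design allows. Over the 19 fits the difference ranged from -0.29 to -0.17, and it passed an FDR of 0.1 after quantile normalization (adjusted p = 0.0877, limma), with array weights (adjusted p = 0.0332, limma) and without control replicate 2 (-0.19, adjusted p = 0.0777, limma). Of all tested probes 4.92%, 50.6% and 42.4% passed in the same 3 fits, and control replicate 2 had the highest Ikbkb signal of the 8 rats.

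Chuk encodes IKK alpha, a kinase of the canonical complex that also activates the p100 precursor in the second, noncanonical NF-kB route. The control rats gave -3.67, -3.78, -3.43 and -3.53 and the stressed rats gave -3.33, -3.27, -3.45 and -3.59. Stressed replicates 1 and 2 lay above all controls, and the other stressed rats lay within the control range. The difference was 0.19 (SE 0.11, 95% interval -0.06 to 0.43, adjusted p = 0.345 in limma), and it was 0.05 after quantile normalization. The scaffold Ikbkg stayed at background on each array (well above it on 0 of 8) and was not tested. Its pair of spots differed within an array by a median of 0.75 on the log2 scale, while this median was between 0.03 and 0.10 for the tested member probes with 2 spots.

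The canonical and noncanonical kinases as classes overlapped between the groups of rats. Each probe was centred on its mean over the 8 arrays, and Ikbke with Tbk1 and Ikbkb with Chuk were averaged in each rat. The noncanonical pair differed by -0.05 between stressed and control rats and the canonical pair by -0.02. The noncanonical minus canonical value ranged from -0.06 to 0.12 in control and from -0.10 to 0.08 in stressed rats, so the groups overlapped. Within each pair one member was lower and the other higher in stressed rats. The Ikbke minus Tbk1 value ranged from -0.09 to 0.84 in control and from -0.63 to 0.01 in stressed rats. The upper end in the controls was control replicate 2, and the other controls reached 0.22. The Ikbkb minus Chuk value ranged from 0.03 to 0.47 in control, where control replicate 2 was again the highest, and from -0.31 to -0.10 in stressed rats, with no overlap. The Ikbkb probe alone separated the groups too, as 12.1% of all tested probes did in either direction. The share of probe pairs that separate was not counted. These class values are given as a description with no test.

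The inhibitor Nfkbia is itself a classical NF-kB target, so its mRNA is widely read as a measure of pathway activity. Its signal was -0.95, -0.68, -1.04 and -0.77 in the control rats and -0.61, -1.07, -1.03 and -1.27 in the stressed rats. Stressed replicate 1 was the highest of all 8 rats and stressed replicate 4 the lowest. The difference of -0.14 (SE 0.15, 95% interval -0.48 to 0.21) had an adjusted p of 0.621 in limma and ranged from -0.33 to -0.04 over 19 fits.

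Among the subunits, Nfkb1 (p105, the precursor of p50) gave -1.57, -2.03, -1.39 and -1.33 in the control rats and -1.53, -1.45, -1.55 and -1.40 in the stressed rats. The stressed rats were close together, and control replicate 2 was the lowest of the 8 rats. The difference was 0.10 (SE 0.15, 95% interval -0.25 to 0.45, adjusted p = 0.722 in limma), and without control replicate 2 it was -0.05. In the fit with the 5′ minus 3′ covariate it was 0.42 (adjusted p = 0.0956, limma).

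Nfkb2 encodes p100, the precursor of p52. It gave -2.73, -2.18, -2.84 and -2.56 in the control rats and -2.52, -2.47, -2.40 and -2.59 in the stressed rats. Here control replicate 2 was the highest of the 8 values, and the stressed rats lay within the control range. The difference was 0.08 (SE 0.14, 95% interval -0.25 to 0.41, adjusted p = 0.758 in limma). It was 0.21 without control replicate 2 (adjusted p = 0.0951, limma), -0.01 without control replicate 3 and -0.25 with the 5′ minus 3′ covariate (adjusted p = 0.117, limma).

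Rela encodes p65, the subunit that carries the transactivation domain of the classical dimer. Its 3′ probe gave -1.04, -0.36, -0.94 and -0.96 in the control rats and -0.87, -0.71, -0.61 and -0.77 in the stressed rats. All stressed rats lay above the other 3 controls and below control replicate 2. The difference was 0.09 (SE 0.15, 95% interval -0.27 to 0.44, adjusted p = 0.763 in limma), and 0.24 without control replicate 2 (adjusted p = 0.0475, limma). In the fit with the 5′ minus 3′ covariate it was -0.26 (adjusted p = 0.184, limma).

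The 5′ probe of Rela spread more widely. It gave -7.77, -5.05, -8.00 and -6.96 in the control rats and -6.06, -5.82, -5.46 and -6.59 in the stressed rats. It was well above background in 2 control and 3 stressed rats. The order of the arrays resembled that of the 3′ probe, with control replicate 2 highest, the stressed rats next and the other 3 controls lowest. The difference was 0.97 (SE 0.62, 95% interval -0.47 to 2.40, adjusted p = 0.398 in limma). It was 1.60 without control replicate 2 (adjusted p = 0.0120, limma), -0.60 with the covariate (adjusted p = 0.198, limma) and 0.18 after normexp background correction. Without control replicate 2 the stressed rats are set against the 3 dimmest arrays (-8.00 to -6.96). The probe was well above background in only 2 of the 4 controls, so the 1.60 is a difference to signals partly near background. The part of the 5′ minus 3′ difference in the values of Rela, Nfkb1, Nfkb2 and Tbk1 was not tested beyond this covariate.

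**Figure D2:**
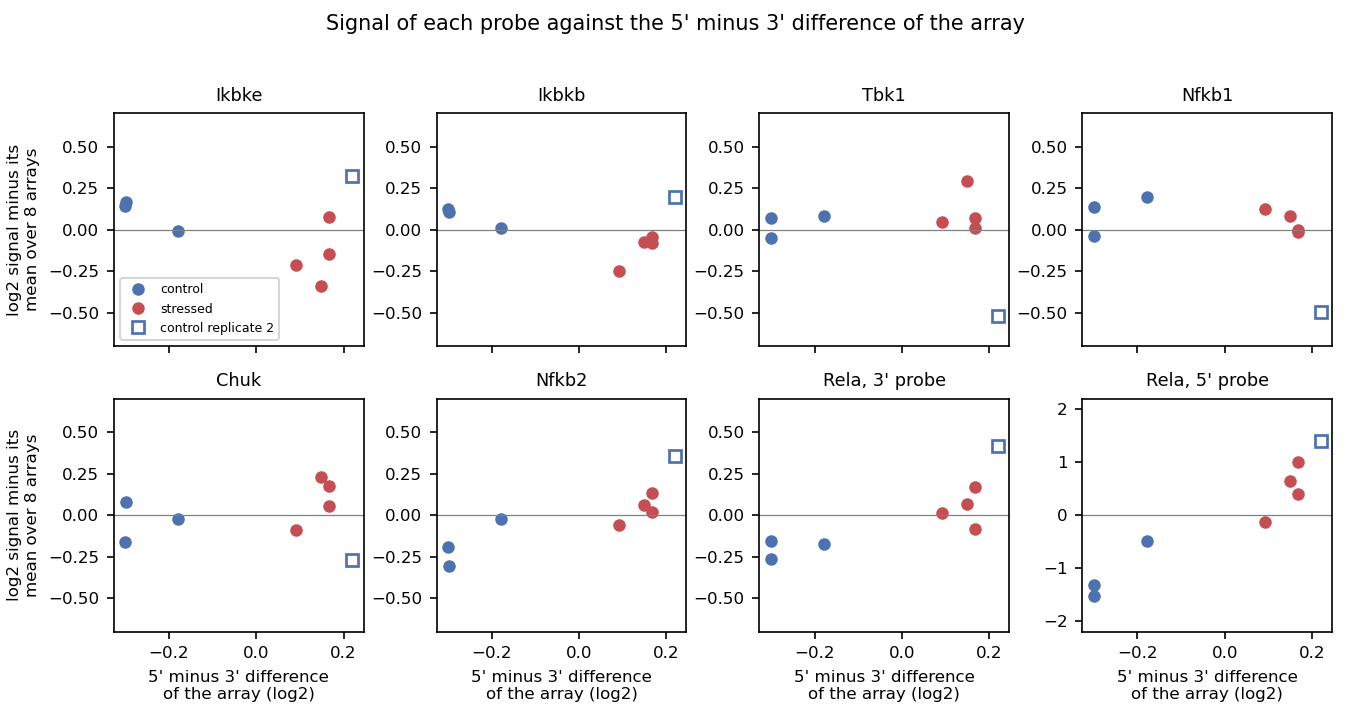
Log2 signal of each probe minus its mean over the 8 arrays (vertical axis) against the 5′ minus 3′ difference of the array (horizontal axis, log2), for control rats, stressed rats and control replicate 2 (open square). Ikbke, Ikbkb, Nfkb2 and both Rela probes are highest in control replicate 2, and Tbk1, Nfkb1 and Chuk are lowest in it. The vertical axis of the Rela 5′ probe is wider.

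**Figure D3:**
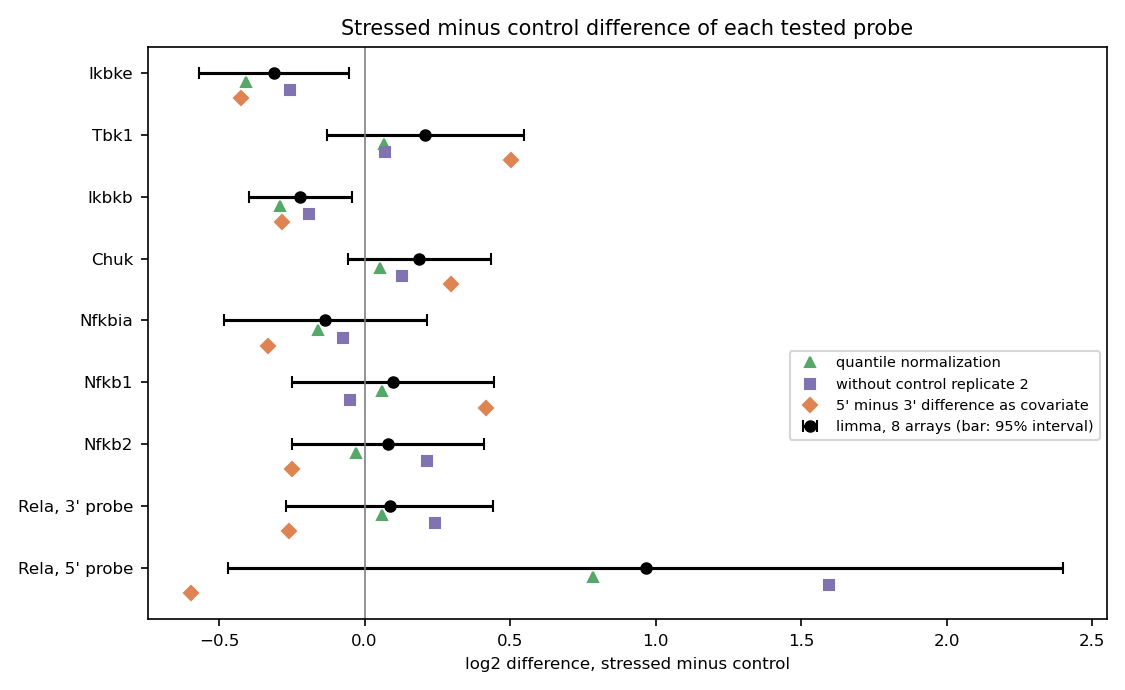
Stressed minus control difference on the log2 scale (horizontal axis) of the 9 tested probes, with the 95% interval as a bar, beside the values after quantile normalization, without control replicate 2 and with the 5′ minus 3′ covariate. Ikbke and Ikbkb stay below 0 in all 4 fits, while Nfkb1, Nfkb2 and both Rela probes lie on both sides of 0.

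The pattern of Ikbke across the 8 rats was closest to that of Gnrh1 (the gonadotropin-releasing hormone gene), Hrasls and Ercc6 (a DNA repair gene), by the root mean square difference between centred log2 signals. This difference was 0.0682, 0.0682 and 0.0683 in the same order, so the 3 genes are nearly tied. Their stressed minus control differences were -0.32, -0.26 and -0.28, with adjusted p values of 0.143, 0.263 and 0.191 in limma. The genes were chosen by closeness over the same arrays, so differences near that of Ikbke follow from the choice.

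Several NF-kB genes are known NF-kB targets, so the promoters of the members were searched for the kB consensus motif, a sequence of 10 bases bound by NF-kB dimers. RefSeq promoters of the GRCr8 assembly, from 250 bases before to 50 bases after a transcript start, were matched by symbol for 7 of the 10 genes. The motif was found on either strand in 4 of these 7, namely Ikbkg, Nfkb1, Nfkb2 and Nfkbia, and in 4.18% of 33469 promoters of the same length. In Ikbkg and Nfkb1 it lay after the start. In Nfkb2 it ran from 20 to 11 bases before the start used and in Nfkbia from 31 to 22 bases before it, and RefSeq places the boundary of each gene further upstream than this start. These stretches are printed because they belong to the subunit and the inhibitor of the group with a match before the start. Motif bases are in capitals, and each sequence is given on the strand of the gene, at chr1:255108344-255108373 (plus strand) for Nfkb2 and chr6:78597084-78597113 (minus strand) for Nfkbia. A match is a description of the letters, and neither gene was called different in stressed rats.
Nfkb2 promoter: tggtattttcGGGACTTTCCtaagagcact
Nfkbia promoter: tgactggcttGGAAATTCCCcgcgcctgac

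The wider pathway had about the share of calls of the whole array. Lists of receptors, adaptors, partners of the noncanonical kinases, other REL and IkB family genes, negative regulators and target genes held 78 genes, of which 61 were tested with 75 probes. Of these probes 2 were called at FDR below 0.1, beside 3.74% of all tested probes. The median difference over the 61 genes was -0.01, with 30 genes above 0 and 31 below.

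The called gene that fell was Ripk1, a kinase recruited to tumor necrosis factor (TNF) receptors that carries the signal to the IKK complex. Its probe near the 3′ end gave -2.34, -2.53, -2.17 and -2.18 in the control rats and -2.70, -2.76, -2.86 and -2.65 in the stressed rats. The groups did not overlap, as for 12.1% of all tested probes in either direction. The difference was -0.44 (SE 0.10, adjusted p = 0.0877, limma). A second Ripk1 probe, nearer the 5′ end, differed by -0.06 (adjusted p = 0.883, limma) and by 0.14 without control replicate 2, so the probes of this gene disagree.

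The called gene that rose was Cyld, a deubiquitinase that removes the ubiquitin chains through which receptors activate the IKK complex. It gave -2.29, -2.26, -2.11 and -2.02 in the control rats and -1.79, -1.80, -1.81 and -1.83 in the stressed rats. The stressed rats lay close together above all controls, where groups separated in either direction for 12.1% of all tested probes. The difference was 0.36 (SE 0.08, adjusted p = 0.0812, limma). Neither Ripk1 nor Cyld was called after normexp background correction, after quantile normalization (adjusted p = 0.101 and 0.153, limma), with the replicate block (adjusted p = 0.215 and 0.218, limma) or when any array other than control replicate 2 was left out. Ripk1 was also not called with the 5′ minus 3′ covariate (-0.27, adjusted p = 0.155, limma).

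Receptors held 11 tested genes with no call, 5 above and 6 below 0, and a median of -0.05. The largest differences were those of Tnfrsf11a (RANK) at 0.83, adjusted p = 0.249, and Tnfrsf1b (TNF receptor 2) at 0.43, adjusted p = 0.118, both in limma. A second probe of Tnfrsf1b differed by -0.03. At the other end were Ngfr, the low-affinity neurotrophin receptor, at -0.41 and Cd40 at -0.18. A second probe of Cd40 differed by -0.38 (adjusted p = 0.183, limma). The 14 tested adaptors and kinases had a median of 0.03, with 8 genes above 0. They included Irak1, a kinase of Toll-like receptor signaling, at 0.34, the ubiquitin ligase Birc2 at 0.22 and the TNF receptor adaptor Tradd at -0.36 (adjusted p = 0.140, limma), whose other probe differed by 0.10.

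The partners and substrates of IKK epsilon and TBK1 were mostly below 0, without a call. Of the 8 tested genes, 7 were below 0 and 1 above by the representing probe, with a median of -0.10. Of all tested probes 40.4% were below 0, and this share was not counted over 1 probe per gene. Optn differed by -0.09 by its representing probe, while its other probes differed by 0.14 and 0.24. Irf3, the interferon regulatory factor that both kinases phosphorylate, gave 1.63, 1.48, 1.74 and 1.59 in the control rats and 1.39, 1.34, 1.33 and 1.31 in the stressed rats. These groups did not overlap, with all stressed rats below all controls, as for 5.44% of all tested probes. The difference was -0.27 (SE 0.08, adjusted p = 0.131, limma). Azi2 of this list and both probes of Sqstm1 separated in the same direction. The autophagy receptor Sqstm1 differed by -0.19, the scaffold Tbkbp1 by -0.02 and Irf7, an interferon-induced relative of Irf3, by 0.03. Without control replicate 2 the sign changed for both, to 0.03 for Tbkbp1 and -0.19 for Irf7.

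The other REL and IkB family genes (6 tested, no call) had a median of -0.01, with Nfkbil1 at -0.33 (adjusted p = 0.110, limma), Bcl3 at -0.13, Nfkbid at 0.26 and Nfkbie at 0.10. The negative regulators (8 tested) had a median of 0.09, and beside Cyld they held Otud7b at 0.48, Commd1 at -0.04 and Tax1bp1 at -0.26. Without control replicate 2 the difference was 0.87 for Otud7b, 0.24 for Nfkbie and -0.07 for Commd1. Of the 19 target genes 14 were tested and 0 were called, and by the representing probes none reached an unadjusted p below 0.05. One further probe of Bcl2l1, an anti-apoptotic gene, did so (difference 0.81, adjusted p = 0.225 in limma). Their median was 0.05, with Nos2 at 0.34, Cxcl10 at 0.31, Icam1 at -0.26 and Sele at -0.32. Sele was well above background in 1 of 4 stressed rats and in all 4 controls, so its value is a difference to signals mostly near background, and it was -0.21 without control replicate 2. Il6, Cxcl2, Mmp9 and Ptgs2 were not well above background on any array, and Cxcl1 was so on 1 array.

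**Figure D4:**
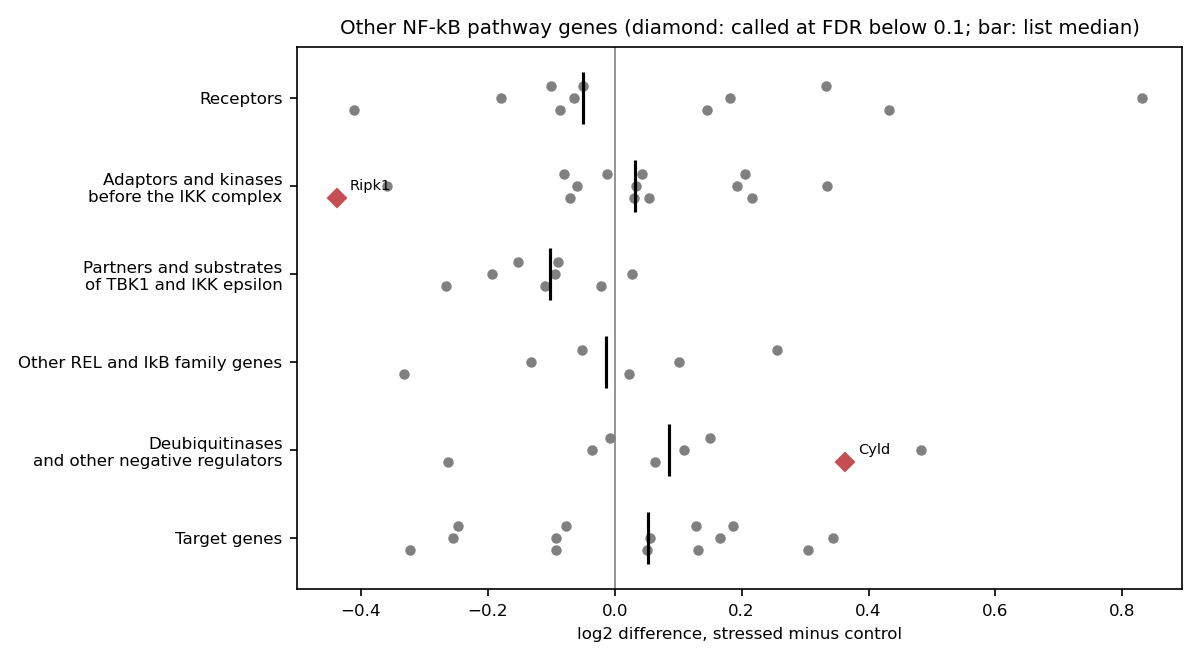
Stressed minus control difference on the log2 scale (horizontal axis) of the 61 tested genes of the 6 pathway lists, 1 probe per gene, with the list median as a bar. Cyld and Ripk1 (diamonds) are the genes called at FDR below 0.1, and the medians lie between -0.10 and 0.09.

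Marker genes of the cell types of the cord are given beside these values, as sums of linear signal in multiples of the 75th percentile of the array. Microglial markers, of which 0 of 6 were called, summed to 6.67 to 8.30 in control and 6.67 to 8.40 in stressed rats. Oligodendrocyte markers were above 0 for 5 of 5 genes with Mog called (0.90), and summed to 214 to 321 in control and 237 to 330 in stressed rats. By the representing probes, 5 of 5 endothelial markers were also above 0. By the same probes, all tested markers of meninges and fibroblasts, Schwann cells and red blood cells were below 0. The share below 0 was 40.4% over all tested probes. Further probes of the red blood cell genes Hbb (1.26) and Hba-a2 (0.06) were above 0. A linear sum gives most weight to its brightest gene, such as Mbp for oligodendrocytes and Aqp4 for astrocytes. Astrocyte markers (0 of 6 called) summed to 51.2 to 61.4 and 56.9 to 75.3, and endothelial markers (Pecam1 called at 0.40, 1 of 5) to 2.71 to 3.73 and 3.19 to 3.92. Neuronal markers (1 of 4 called, Eno2 at -0.37, whose other probe differed by -0.04) summed to 63.7 to 76.0 and 63.0 to 73.0. No marker of motor neurons, meninges and fibroblasts, red blood cells, Schwann cells or lymphocytes was called, and Cd3e and Cd79b were not well above background on any array. Schwann cell markers varied most, from 0.294 to 53.0 in control and 0.278 to 13.3 in stressed rats. The part of cell composition in the differences of the NF-kB genes was not tested.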

How the data were processed

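Agilent 1-colour arrays of 8 rats were used. The authors deposited spot intensity values that Agilent Feature Extraction 10.7.3.1 had background-subtracted and detrended within each array, per the file headers, and a value table that holds this signal rounded, with no sign of normalization between arrays. The study names dChip for later steps, and its normalization and test are not given in the sources used here. Positions of probes are on rn4 as the files give them, and the strand follows the order in which they give the ends. Each array has 58717 spots apart from 4259 control spots, and the files hold 0 columns of other series.

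The log2 signal minus the 75th percentile of each array was averaged over the spots of a probe, without outlier spots, and tested with limma 3.58.1 (lmFit and eBayes, R 4.3.3) with no covariate. A probe counted as well above background where this held for 0.5 or more of its spots. Benjamini-Hochberg adjustment ran over 23677 probes. Exact tests are two-sided over all 70 choices of 4 arrays. Each sample is a separate rat by the methods of the study, with litter and cage not stated. The number of arrays limits the precision. The script was tested on simulated data.

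The probe with the highest mean represents a gene. Pathway genes were named when called or among the 2 largest rises and 2 largest falls of their list. The members, lists and alternatives were chosen with earlier results of these data known. The alternatives were normexp background correction (offset 50), quantile normalization, the rounded values, no filter, a filter on all 8 arrays, trend with robust eBayes, array weights, replicate block, the 5′ minus 3′ covariate (probes at least 300 bases apart), leaving out each array, and 1 probe per gene symbol. Ikbke, Ikbkb and Relb had no promoter in the RefSeq table used, and no genome was read, so exons were not analysed.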

Additional observations from a re-analysis of the deposited data

Results flagged for a closer look

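In the control rats, the value of the Rela 3′ probe in control replicate 2 (-0.36) lay far above the other 3 (-1.04 to -0.94). The gap to the nearest of them was 0.842 of the range of the group, above Dixon's critical value for 4 samples. The first principal component of all tested probes set the same rat apart, at 46.1 against -56.3 to -39.4 in the other controls, with a gap of 0.835 of the range. Chance gives about 1 such value in 20 groups, and these were 2 of 26 groups tested.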

How the results depend on the processing

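All 9 member probes stayed above an FDR of 0.1 with normexp background correction, with the value table, with no filter, with trend and robust eBayes, with the replicate block and without any array other than control replicate 2, and so did the 8 probes left by a filter on all 8 arrays or by 1 probe per gene symbol. The sign changed for Nfkb1 with array weights (-0.052) and without control replicate 2 (-0.051, range over left-out arrays -0.051 to 0.18), for Nfkb2 after quantile normalization (-0.030), with the 5′ minus 3′ covariate (-0.25) and without control replicate 3 (-0.0065, range over left-out arrays -0.0065 to 0.21), and with the covariate for the Rela 3′ probe (-0.26) and 5′ probe (-0.60). Array weights, where control replicate 2 had a weight of 0.107, brought 5 member probes under an FDR of 0.1, where 50.6% of all tested probes passed. Leaving that array out brought 4 under it, where 42.4% of all tested probes passed. The cause was not tested. Over all probes, 885 calls became 215 with normexp, 3010 with no filter, 11983 with array weights and 2390 with the covariate, and ranged from 0 to 10038 when 1 array was left out, with 10038 without control replicate 2 and at most 72 otherwise. The 2 pathway calls became 0 with normexp, 4 after quantile normalization, 6 with no filter, 4 with trend and robust eBayes, 37 with array weights and 7 with the covariate, and ranged from 0 to 30 when 1 array was left out, with 30 without control replicate 2 and 0 otherwise. Ripk1 and Cyld were not among the 4 calls after quantile normalization. Among the named pathway genes the sign changed with the covariate for Commd1 (0.050), Nfkbie (-0.24), Nos2 (-0.031), Otud7b (-0.44) and Tnfrsf11a (-0.026), after quantile normalization for Nfkbie (-0.041) and Tbkbp1 (0.027), with array weights for Irf7 (-0.098) and Tbkbp1 (0.0092) and with normexp for Sele (0.051). When 1 array was left out, Irf7 ranged from -0.19 (without control replicate 2) to 0.28 and Tbkbp1 from -0.065 to 0.029 (without control replicate 2). Replicate numbers are those of the slide columns. Stressed and control rats of the same number had correlations from -0.09 to 0.31, over tested probes centred within each group. Each stressed rat correlated more closely with a control of another number. Whether rats were handled in pairs was not tested. With the replicate block limma called 0 probes in all (4292 at an unadjusted p below 0.05) and 0 pathway probes (12 at an unadjusted p below 0.05). Ikbkg, at background on all arrays, allows no statement.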
